A study of Mus musculus with 96 samples.

Results

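Negative controls of a Patch-seq experiment were set against the patched neurons of the same study. A control was a sham collection, in which a pipette made contact with the tissue but took no cell and was then carried through cDNA synthesis and sequencing like the others. The comparison therefore asks which transcripts reach a library from the slice and the procedure alone, and which are seen only when a neuron was aspirated. Members were taken by label, namely all negative_control libraries except NC5 and NC6, which left 8 of 10. They were compared with the neurons labelled pLSO_Onset (41 kept), pLSO_Sustained (11 kept) and LOC_Delayed (28 kept), 80 of 86 neurons, out of 96 libraries in all. The 8 libraries left out were set with earlier results of these data known, and the labels do not give the reason.

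All samples came from the lateral superior olive (LSO), an auditory brainstem nucleus, in slices of C57BL/6J mice of both sexes around the onset of hearing. The sources name no treatment and no transgene in any group. pLSO stands for the principal neurons of the nucleus, here with onset or sustained firing, and LOC for the lateral olivocochlear neurons, which fired with a delay. The labels give neuron as the cell type of every library, the controls included, although a control holds no harvested cell. One control was made per experimental day according to the study's methods, but the labels tie no library to a day or an animal. Each group therefore counts as 1 sample here, no test across libraries was made, and intervals (exact Clopper-Pearson, 95%) cover counting error only.

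In Patch-seq a neuron is recorded, its cytoplasm is sucked into the recording pipette, and the RNA is turned into cDNA and amplified. The pipette crosses a slice whose surface holds cut axons, myelin and blood from severed vessels, so RNA from outside the patched cell can enter. Amplification from a few molecules makes any molecule that was captured visible, and a control has no cellular RNA to compete with it. In the LSO the neurons sit among many myelinated axons and the oligodendrocytes that wrap them.

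The designed oligonucleotides of the library preparation are shown because controls and neurons were amplified by the same handle, whatever RNA was in the tube. Capitals mark the stretch of 23 bases that all 3 share. Lower case marks the 3 or 4 bases that follow this stretch in the oligo-dT primer and the template switching oligonucleotide (TSO). The stretches that follow, of T in the oligo-dT primer and of riboguanosines in the TSO, are not printed.
IS PCR primer: AAGCAGTGGTATCAACGCAGAGT
Oligo-dT primer: AAGCAGTGGTATCAACGCAGAGTact
TSO: AAGCAGTGGTATCAACGCAGAGTacat
The oligo-dT primer starts cDNA on poly(A) tails, the TSO adds the same handle at the other end, and the IS PCR primer amplifies every molecule that carries the handle at both ends.

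The controls held fewer genes than the neurons and far fewer reads. A gene was counted as detected at 1 TPM or more, where TPM (transcripts among 1000000) scales the values of each library to the same sum. The controls held 285, 325, 742, 808, 834, 1083, 1103 and 1271 genes (NC3, NC10, NC7, NC9, NC1, NC4, NC8 and NC2). The neurons held between 1175 and 6276 genes with a median of 2496. Only 1 neuron lay below the richest control, and the median neuron had 3.04 times the genes of the median control. Values of a library moved in whole steps, and 99.92% of 8459 low values lay within 0.1 of a whole multiple of 1 step per library and row. With 1 step taken as 1 read, the controls held between 1208 (NC3) and 101171 (NC8) reads, with a median of 22446, and the neurons between 106329 and 2487992, with a median of 486704. The ranges of the libraries compared did not overlap, and the median neuron had 21.7 times the reads of the median control. Among the libraries left out, NC5 and NC6 had 172893 and 176414 reads. The neurons cell_36, cell_85, cell_40 and cell_78 had 21698, 37129, 68307 and 84386. With these libraries the ranges overlapped, so the gap rests on what was left out.

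**Figure D1:**
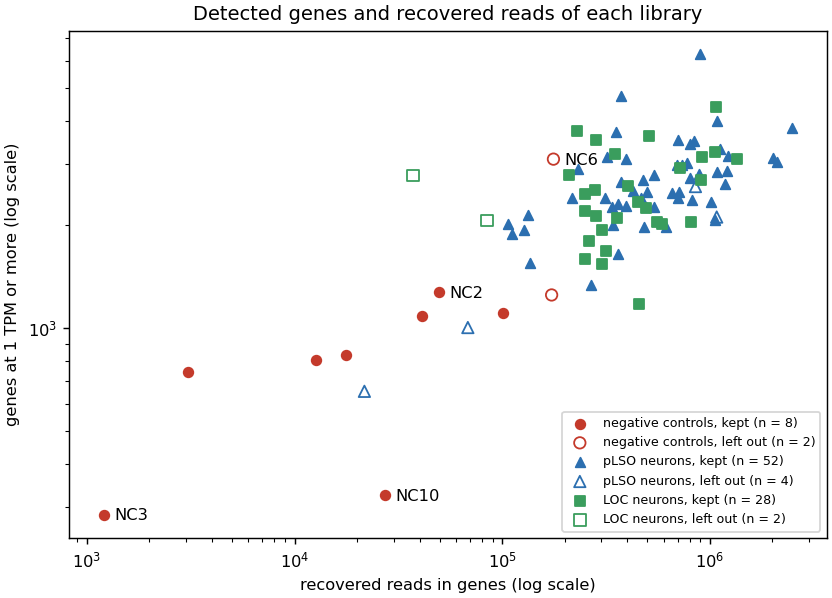
Each point is 1 library, with its recovered reads on the x axis and its genes at 1 TPM or more on the y axis, both on log scales. Filled symbols are the 8 controls (red circles), 52 pLSO (blue triangles) and 28 LOC neurons (green squares) that were compared, and open symbols are the 8 libraries left out. The 8 filled controls lie to the left of the 80 filled neurons, which does not hold once the open symbols are counted.

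The step sizes also showed how the deposited TPM scale with the place of a gene in the table. The divisor of a row was 1 in row 1, 6 in row 1000, 27 in row 3000 and 53 in row 5000, and rose to about 1080 by row 20775. The same gene can be compared between libraries on this scale, but TPM levels of different genes cannot be compared with each other. One TPM also stands for different read numbers, since a single read in a late row of a deep neuron rounds to 0. For this reason reads are given beside many of the TPM values of controls, as close estimates up to row 5200 and as approximations after it.

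At equal reads the controls still held fewer genes than most neurons. A read is not a molecule, so equal reads need not be equal captured RNA, and what this adds to the gap was not tested. In the first 2100 rows, where 1 read gives at least 1 TPM in every library compared, the controls held between 47 and 171 genes. The neurons, thinned to the reads of each control in turn, had median expected numbers between 86.3 (at the 130 reads of NC3) and 310 (at the 11541 reads of NC8). NC8 itself held 152 genes in these rows, and NC10 held 55 where the median neuron would have held 270. For NC1, NC3 and NC10 no neuron had as few genes as the control, and NC7 had the most neurons at or below it, 5 of 80.

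A few genes held more of a control than of most neurons. The 10 highest genes held between 47.3% and 65.7% of the summed TPM of a control (54.0% ± 6.23, SD over 8 controls). They held between 15.4% and 37.5% of that of a neuron (22.6% ± 4.73, SD over 80 neurons). The ranges of the libraries compared did not overlap. In the neurons left out the share ran from 15.2% (cell_85) to 72.4% (cell_36), and in NC5 and NC6 it was 40.3% and 17.6%. With these libraries the ranges overlapped, so this gap also rests on what was left out. Since TPM of different genes are not on 1 scale, the share was also taken over recovered reads, a measure added after seeing the data. The 10 genes of most reads held between 14.8% and 46.1% of the reads of a control (median 21.5%) and between 4.63% and 53.0% of those of a neuron (median 6.93%), and 3 of 80 neurons were at or above the lowest control. The highest shares of reads were those of NC3 and NC7, which had the fewest reads. By reads Mbp, which encodes myelin basic protein, was the highest gene of NC2, NC8 and NC10, and also of some neurons, such as cell_30 and cell_82. The highest TPM values stood on fewer reads, such as Lin7b in NC7 (389802 TPM, about 205 of 3062 reads) and Tcf25 in NC3 (270024 TPM, about 30 of 1208 reads). Lin7b, a scaffold protein of synapses and epithelia, was at 0 in the other 7 controls and reached at most 4517 TPM in a neuron.

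Across all genes, most of what was compared was seen more often in neurons. Compared were 10363 genes at 1 TPM or more in at least 2 controls or at least 5% of neurons. A gene was called higher in a group at a ratio of (mean TPM without the highest library + 1) of at least 4 together with a share of libraries at least 25 percentage points higher. By this rule 2273 genes (21.9%) were higher in neurons and 7 (0.0675%) were higher in controls. Where a gene counted as detected only if it was among the 250 highest genes of its library, 126 genes were higher in neurons and 27 in controls. This rank sets the same number of genes for every library. It orders genes by TPM that are not on 1 scale, however, and so favours early rows. It also takes in most of the 285 genes of NC3 and few of the 2496 of a median neuron. A control held a compared gene in 7.30% ± 3.23 of cases (SD over 8 controls) and a neuron in 24.6% ± 7.32 (SD over 80 neurons). Of the 1270 genes found in at least 40 of the 80 neurons, 1066 were in at least 1 control, 219 were in at least 4 of the 8 controls and 204 were in none. All 22 genes found in every neuron were also found in 1 or more controls.

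The controls held fewer genes than neurons scaled down to the same reads. A gene's expected number of controls was computed from its share of reads in each neuron and the read total of each control. This equates the groups in reads, not in molecules captured. Over the 9761 compared genes with recovered reads, the controls held genes 5710 times where 13670 were expected, a ratio of 0.418. In the first 2100 rows, where no read is lost to rounding, the ratio was 0.438. Among the 9761 genes, 1065 were in at least 2 fewer controls than expected and 44 were in at least 2 more.

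**Figure D2:**
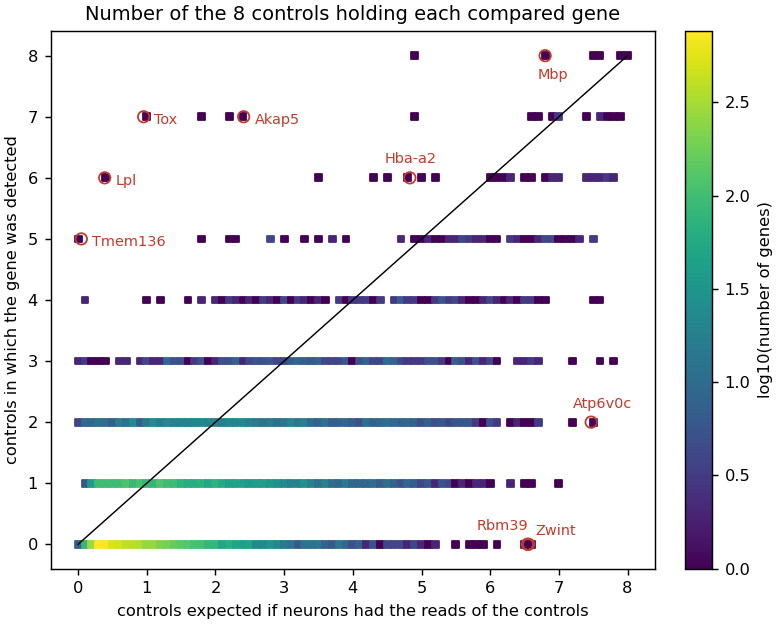
The x axis gives the number of the 8 controls expected to hold a gene if each neuron had the reads of the controls, and the y axis gives the number that held it. Squares are the 9761 compared genes with recovered reads, coloured by the log10 of the number of genes at the same place, and the line marks equality. Tox, Lpl, Akap5 and Tmem136 lie above the line, and Zwint, Rbm39 and Atp6v0c lie below it.

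The genes found in all 8 controls were few and of several kinds. There were 9 of them, among them Ubb, which encodes polyubiquitin, the chaperone gene Hsp90aa1, the myelin gene Mbp, the noncoding RNAs Meg3 and Malat1, Lars2, Gm42418 and Gm10800. With 8 of 8 controls the interval of the share is 63.1% to 100%. Another 19 genes were in 7 of the controls, among them Nefm, Snap25, Actb and Ndufa4. In all, 255 genes were in at least 4 of the 8 controls, and 219 of these were in at least 40 of the 80 neurons as well. Without NC2 the number in at least 4 of the 7 other controls was 161.

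The median of a myelin gene was higher in the controls than in the neurons. Mbp (ENSMUSG00000041607) ranged from 24 to 3636 TPM in the controls with a median of 750. In the neurons it ranged from 0 to 4551 with a median of 76.5, and 12 of 80 neurons reached the control median. The mean without the highest library was 887 TPM in controls and 254 in neurons, 3.49-fold apart, and the groups overlapped. About 3998 reads of Mbp were in NC8 and about 1765 in NC10, against 4 in NC7, so its reads differed widely between controls. Mobp, another myelin gene, was in 7 of 8 controls and 55 of 80 neurons.

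The oligodendrocyte list of 19 genes showed which transcripts of this cell the controls held. Of its members, 11 were in at least 1 control and 5 in at least 4 of the 8 controls. Of the 17 compared, 0 were called higher in controls and 1 in neurons, beside 0.0675% and 21.9% of all compared genes. The 5 included Mbp and Mobp, and Mag and Trf in 4 controls each. Cnp and Mal were in 3 controls, Mog in 2, and Cldn11, Ugt8a and Fa2h in 1. The transcription factors of the lineage, Olig1, Olig2, Sox10 and Myrf, were at 0 in all 8 controls and were seen in 14, 1, 6 and 6 neurons. A control held 27.6% ± 10.4 of the list and a neuron 30.1% ± 18.5, so by presence alone the groups did not differ by more than their spread. By reads the medians were 16.8-fold apart, with ranges that overlapped. In RPM, recovered reads out of 1000000 of a library, the list took between 6432 and 147803 in the controls (median 53112) and between 0 and 141460 in the neurons (median 3152), and 2 of 80 neurons reached the control median. The 7 genes of oligodendrocyte precursors, such as Pdgfra and Cspg4, were in no control and in at most 4 neurons each.

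Blood transcripts followed the same pattern. Hba-a2 and Hba-a1, the near-identical alpha-globin genes between which reads may be split, were each in 6 of 8 controls (34.9% to 96.8%). Hba-a2 ranged from 0 to 1310 TPM in controls with a median of 81, and from 0 to 10200 in neurons with a median of 4. The mean without the highest library was 174 TPM in controls and 11.1 in neurons, 15.7-fold apart, and Hba-a1 was 27-fold apart (78.9 and 2.92 TPM). NC1 held 1 read of Hba-a1 and none of Hba-a2, NC3 held neither, and NC10 held about 973 and 1128 reads. Hbb-bs and Hbb-bt, the beta-globin genes, were in 4 and 2 controls, and Alas2, an enzyme of haem synthesis in red cells, was in none. The list of 5 took a median of 12235 RPM in controls and 339 in neurons, 36.1-fold apart, and 2 neurons reached the control median.

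**Figure D3:**
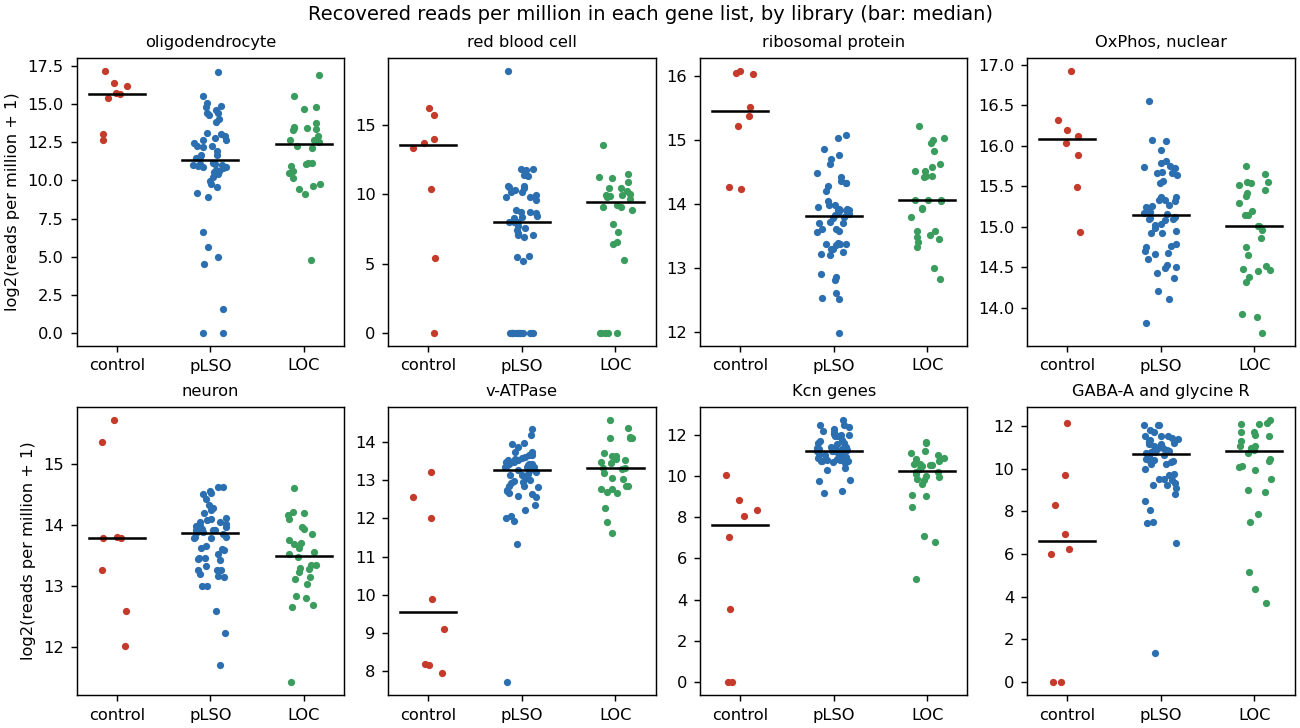
Recovered RPM in 8 gene lists are plotted by library as log2(RPM + 1), with a scale of its own in each panel, for 8 controls (red), 52 pLSO (blue) and 28 LOC neurons (green). Bars mark medians. The oligodendrocyte, red blood cell, ribosomal and OxPhos lists have their highest medians in the controls, and the v-ATPase, Kcn and inhibitory receptor lists have their lowest there.

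Astrocyte and microglia genes were in few controls each, but their reads were not fewer than in neurons. Of 20 astrocyte genes 13 were in at least 1 control, but only Sparcl1 (7 controls, 73 neurons) and S100b (5 controls, 50 neurons) were in at least 4. Gfap was in 2 controls and 22 neurons, Aqp4 in 1 and 21. A control held 18.8% ± 10.6 of the astrocyte list and a neuron 31.9% ± 13.1. The list took between 68.5 and 24682 RPM in controls (median 5328) and between 117 and 12840 in neurons (median 3810), 1.40-fold apart with ranges that overlapped. S100b, which oligodendrocytes also express, had a mean without the highest library of 80.9 TPM in controls and 10.1 in neurons. Of 15 microglia genes 8 were in a control and none in more than 3, with C1qb in 3 controls, P2ry12 in 2 and Cx3cr1 in 0. Microglia reads were highest in NC4, where the list took 20484 RPM against a control median of 1507 and a neuron median of 565, 2.67-fold apart. At equal reads the observed over expected detections were 0.848 for the astrocyte and 0.683 for the microglia list, both above the 0.418 of all compared genes.

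Genes of vessel and surface cells were rare in the controls, and in the neurons too. A control held 5.77% ± 7.96 of the endothelial list and a neuron 9.71% ± 5.71. The means were 1.14% and 2.27% for mural cells and fibroblasts, 2.08% and 1.25% for choroid plexus and ependyma, and 2.08% and 3.12% for keratins. At equal reads the ratios of detections were 0.857, 2.16, 2.14 and 1.01, beside 0.418 for all compared genes, from 6 detections or fewer each. Of 13 endothelial genes, Bsg was in 3 controls, Pecam1 in 2 and Tek in 1, while Cldn5, Flt1 and Cdh5 were in none. Bsg, which is not confined to endothelium, was in 69 neurons. Of 11 genes of mural cells and fibroblasts, only Col1a1 was seen, as 1 read in NC10. Of 6 genes of choroid plexus and ependyma, only Ttr was seen, as about 1 read in NC9. Of 6 keratin genes, markers of skin and other surface cells, only Krt8 was in a control (NC8, 7 TPM, about 14 reads), and Krt10 was in no control and 14 neurons.

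The 7 genes called higher in the controls were Slc4a1, Lpl, Pls3, Vps8, Tox, Gm5564 and Nnat. Lpl, Gm5564 and Tox had been picked by the naming rules, and Slc4a1, Pls3, Vps8 and Nnat are named because the count is small, after their values were seen. Lpl, lipoprotein lipase, was in 6 of 8 controls and 17 of 80 neurons (21.2%, 12.9 to 31.8). It held 18 reads in NC7 and between 1 and 3 in the other 5 controls. Tox, a nuclear HMG-box factor, was in 7 controls and 17 neurons, with about 10 reads at most in any control. Slc4a1, the anion exchanger of the red cell membrane, was called from 3 reads, 2 in NC4 and 1 in NC10, and was in no neuron. Nnat, an imprinted gene, was in 5 controls and 25 neurons, with a mean without the highest library of 10.1 TPM in controls and 0.987 in neurons. Without NC9, 3 genes were called. Lpl and Nnat kept the call with any 1 control left out. Slc4a1 lost it without NC4 or NC10, Tox without NC3 or NC9, Vps8 without NC2, NC7 or NC9, Gm5564 without NC1, NC2 or NC9, and Pls3 without NC4, NC7, NC8 or NC9.

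Other genes stood higher in controls by one of the measures alone. Akap5, an anchoring protein of kinase A at synapses, was in 7 controls and 73 neurons. It ranged from 0 to 1127 TPM in controls with a median of 326, and no neuron, the highest at 256, reached that median. The reads behind it were few, between 1 and 28 in the 7 controls. Lars2, the mitochondrial leucyl-tRNA synthetase, ranged from 38 to 885 TPM in controls with a median of 348, which no neuron reached (3 to 306, median 62.5), from between 2 and 756 reads in a control. Gm42418, which overlaps ribosomal RNA sequence in this assembly, ranged from 416 to 4039 TPM in controls with a median of 1419, reached by 3 of 80 neurons (39 to 2472, median 317). Tmem136 was in 5 controls and 1 neuron, and Slc39a2 in 4 controls and 1 neuron, with 3 reads at most in a control for each. Tmem250-ps, annotated as a long noncoding RNA, and the pseudogene Pgam1-ps2 were in 7 and 5 controls and in 15 and 13 neurons. The predicted genes Gm15564, Gm26870, Gm6863 and Gm8355 were in 5, 5, 4 and 4 controls and in 7, 12, 2 and 2 neurons.

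The noncoding RNAs Malat1 and Meg3 ran the other way by level. Malat1, a long RNA retained in the nucleus, was in all 8 controls at 23 to 432 TPM (median 108) and in all 80 neurons at 6 to 4048 (median 852). Meg3, an imprinted noncoding RNA, ranged from 50 to 2535 TPM in controls (median 670) and from 288 to 26875 in neurons (median 3948). The means without the highest library were 9.81-fold apart for Malat1 (110 and 1074 TPM) and 8.39-fold apart for Meg3 (570 and 4783 TPM), both higher in neurons. For Malat1 61 neurons and for Meg3 55 neurons lay above the highest control. Both genes were present in every library of both groups, so presence did not separate what level did. Rian was in 2 controls and 61 neurons. Miat, Neat1 and Mirg were in no control, where 35.6% of all compared genes were in a control. Of the 8 genes of this list, 0 were called higher in neurons and 0 in controls, beside 21.9% and 0.0675% of all compared genes. At equal reads 14 detections stood beside 15.7 expected, from 2 members with recovered reads, a ratio of 0.892 beside 0.418.

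**Figure D4:**
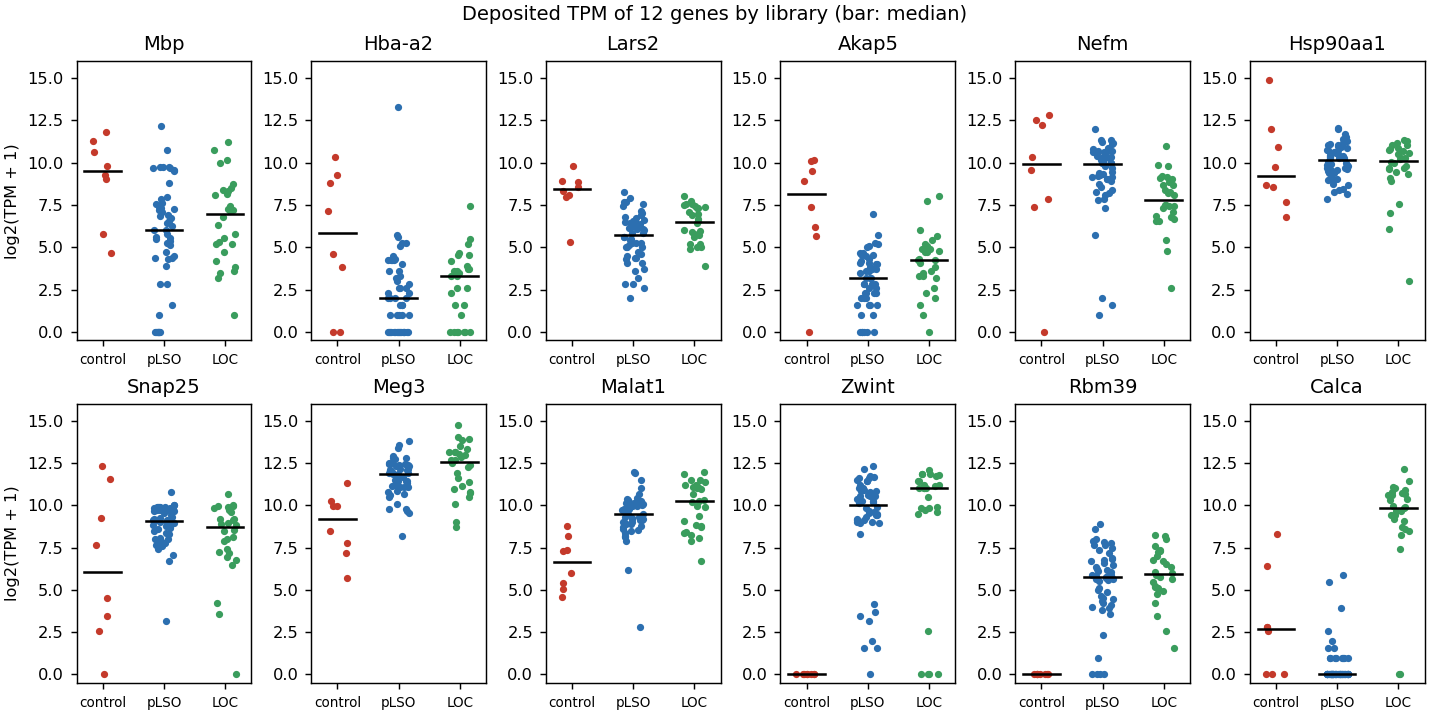
Deposited TPM of 12 genes are plotted by library as log2(TPM + 1) for 8 controls (red), 52 pLSO (blue) and 28 LOC neurons (green), with bars at the medians. Mbp, Hba-a2, Lars2 and Akap5 have higher medians in controls, Meg3 and Malat1 have higher medians in neurons, and Zwint and Rbm39 are at 0 in all 8 controls.

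The controls also held transcripts of neurons, among them those of neurofilaments and of vesicle release. Of 20 pan-neuronal genes, 18 were in at least 1 control and 9 in at least 4. Nefm, the medium neurofilament subunit, was at 0 to 7109 TPM in the controls (median 1018) and at 1 to 4120 in the neurons (median 569). Snap25, a SNARE protein of synaptic vesicle release, was at 0 to 5033 TPM in the controls (median 110) and at 0 to 1729 in the neurons (median 492). The mean of Nefm without the highest library was 1863 TPM in controls and 776 in neurons, 2.40-fold higher in controls, and that of Snap25 was close, 547 and 529 TPM. The highest control value stood on about 456 reads for Nefm (NC2) and on about 90 for Snap25 (NC7). Rtn1 was in 6 controls, and Nefl, Nefh, Map2, Stmn3 and Gap43 in 5. Syt1, the calcium sensor of vesicle release, was in no control and 62 neurons, and Rbfox3, the nuclear antigen NeuN, in no control and 28 neurons.

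As a list, the pan-neuronal genes gave no separation by reads. They took between 4151 and 54048 RPM in the controls (median 14184) and between 2754 and 25429 in the neurons (median 13616). By presence a control held 42.5% ± 18.1 of them (4 to 13 genes) and a neuron 77.6% ± 13.7 (8 to 20 genes), and 9 members were called higher in neurons, against 21.9% of all compared genes. At equal reads 68 detections were seen over the controls where 100 were expected, a ratio of 0.677 beside 0.418 for all compared genes. Under the rank of 250 genes, with the limits given above, the difference turned, to 12 points higher in controls.

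Cytoskeletal genes were the most widely shared list. Of 22 members, 20 were in at least 1 control and 16 in at least 4, and a control held 51.1% ± 20.7 of them against 83.5% ± 11.1 in a neuron. Actb was in 7 controls at up to 1309 TPM (median 144) and in every neuron (median 200). Map1b was in 6 controls and 79 neurons. Mapt, which encodes tau, and Kif5c, a neuronal kinesin, were in no control and in 57 and 55 neurons. This list also turned under the rank of 250 genes, to 14.1 points higher in controls.

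**Figure D5:**
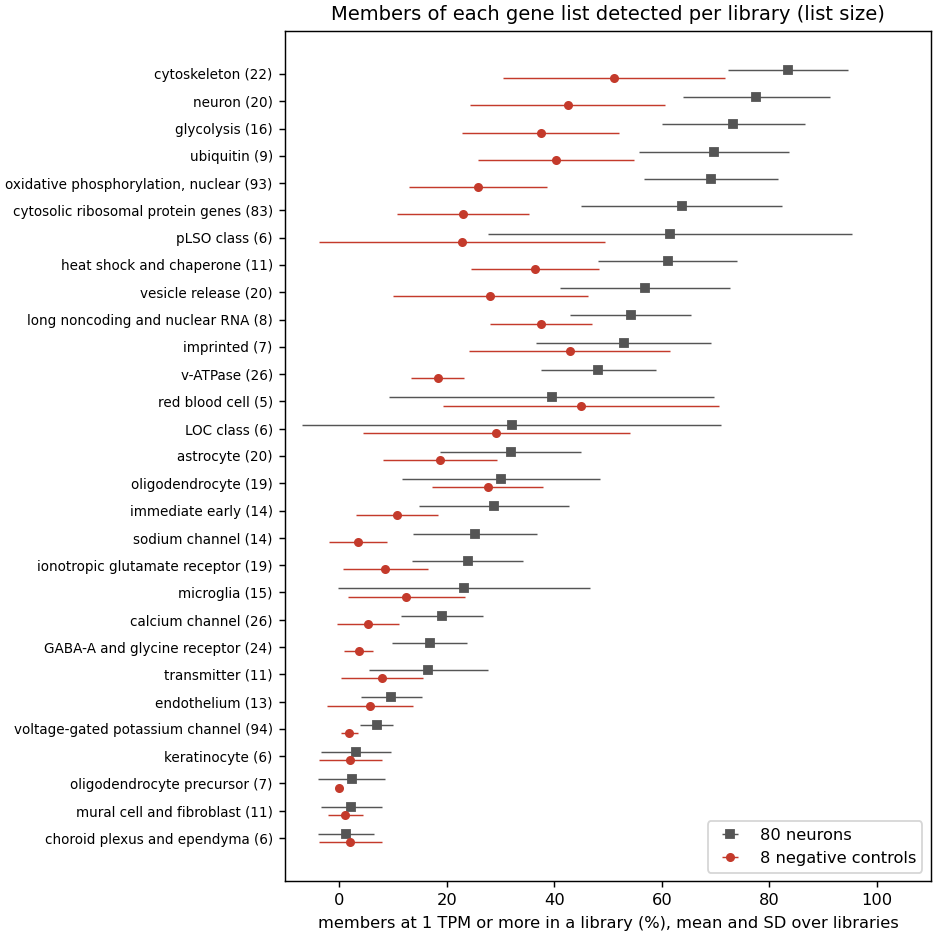
For each gene list, with its number of genes in brackets, the x axis gives the percentage of members at 1 TPM or more in a library, as mean and SD over 8 controls (red) and 80 neurons (grey). Neurons lie higher in 27 of 29 lists, and the red blood cell and choroid plexus lists are the exceptions.

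Genes seen in most neurons and no control formed the other end of the comparison. By rule the 12 of highest share were Rbm39, Zwint, Rpl19, Cox7b, Ndufb9, Mpc1, Nptn, Rps14, Atp6v0d1, Pdcd4, Rnmt and Nav1, in 76 down to 62 of 80 neurons. Rbm39 (ENSMUSG00000027620, chr2:156147239-156180238), a splicing factor, was in 76 neurons at a median of 54 TPM. Zwint (ENSMUSG00000019923, chr10:72654845-72674964), a kinetochore protein that neurons also express strongly, was in 75 neurons at a median of 1224 TPM. With 0 of 8 controls the interval of the share reaches 36.9%. At equal reads Zwint would have been in 6.56 and Rbm39 in 6.54 of the 8 controls, and each was seen in 0. Nav1, a neuron navigator that guides growing axons, was expected in 4.49 controls. The 12 genes were chosen for being in no control, so the 0 was set by the choice and the contrast is not evidence.

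Ion channel genes were found less often in the controls than in the neurons, where most of them were infrequent too. A control held 3.57% ± 5.40 of the sodium channel list, 1.86% ± 1.58 of the potassium channel list and 5.29% ± 5.79 of the calcium channel list, and a neuron 25.2% ± 11.5, 6.95% ± 3.04 and 19.1% ± 7.61 (SD over 8 controls and 80 neurons). Of the genes compared, 4 of 9 sodium, 5 of 34 potassium and 7 of 17 calcium channel genes were called higher in neurons, beside 21.9% of all compared genes. Of 14 sodium channel genes, 3 were in a control, namely Scn1a in 2, Scn8a in 1 and Scn2a in 1. Scn1a, the Nav1.1 subunit of fast-spiking neurons, was in 68 of 80 neurons. Over the list 3 detections with recovered reads stood against 17.3 expected at equal reads, a ratio of 0.173. Rounding lowers this ratio, since 1 read of Scn1a, expected in 5.80 controls, is listed in only 6 of the 8. The ratio was 0.375 for potassium and 0.480 for calcium channels, beside 0.418 for all compared genes. Of 94 genes with symbols starting with Kcn, mostly potassium channel subunits, 12 were in a control and none in more than 2. The Kcn list took a median of 198 RPM in controls and 1935 in neurons. Kcna1, a low-threshold potassium channel, was in 51 neurons and in 2 controls, with about 38 reads in NC4 and 1 in NC1. Of 26 calcium channel genes 9 were in a control, with Cacng2 and Cacna2d1 in 2 each.

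Receptors for inhibitory and excitatory transmitters were also found less often in the controls. At equal reads their ratios were 0.332 and 0.538, beside 0.418 for all compared genes. Of 24 GABA-A and glycine receptor genes, 7 were in exactly 1 control each and none in more. Glrb, the beta subunit that anchors glycine receptors, was in 61 neurons and no control, although 4.98 controls were expected at equal reads. Glra1 was in 39 neurons and, as about 6 reads, in NC2. Of 19 ionotropic glutamate receptor genes 7 were in a control, and Gria2, an AMPA receptor subunit, was in 4 controls and 65 neurons. Gria2 had a mean without the highest library of 4.57 TPM in controls and 35 in neurons. The transmitter list was small in both groups, with Slc17a6 (the glutamate transporter VGLUT2) and Gad2 (a GABA-synthesising enzyme) each in 3 controls and in 43 and 33 neurons.

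Vesicle release genes lay between these patterns. Of 20 members, 16 were in at least 1 control and 5 in at least 4. Besides Snap25, these were Syn2, Rab3a, Cplx1 and Nsf, in 4 controls each. Cplx2, a complexin, was in 3 controls, at 1476 TPM (about 61 reads) in NC1 and 428 TPM (about 52 reads) in NC2, and in 17 neurons at up to 198 TPM. Syt1, Stx1a, Bsn and Unc13a were in no control.

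The genes that the study used to tell the neuron classes apart were present in some controls. They were chosen by the study on these libraries, so their separation of the classes is not independent evidence. Spp1 (osteopontin), a pLSO gene, was in 4 of 8 controls (15.7% to 84.3%), in 50 of 52 pLSO and in 1 of 28 LOC (3.57%, 0.0904 to 18.3). Its control values were 115, 91, 229 and 32 TPM in NC1, NC2, NC3 and NC7, from about 20, 46, 2 and 1 reads. The share in controls was above that in the neurons of the other class, with intervals that overlapped between 15.7% and 18.3%. Calca, which encodes CGRP and calcitonin, is a LOC gene, and it was in 5 of 8 controls (24.5% to 91.5%). It was in 26 of 28 LOC and in 15 of 52 pLSO (28.8%, 17.1 to 43.1), with intervals of controls and pLSO that overlapped. The pLSO count leaves out cell_54, labelled pLSO_Sustained, in which Calca was the gene of most reads (about 17119). Its highest control value was 315 TPM in NC9 (about 29 reads).

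The remaining class genes were weaker in the controls. Col4a3 was in 4 controls at 5 TPM or less, in 23 of 28 LOC and in no pLSO. Lpgat1 was in 3 controls with 1 read each, and Igsf3, Ucn and Nxph1 were in 2 controls with about 1 read each. Tenm2, Kcnh7 and Anxa2 were in 1 control. Maf, a transcription factor of the pLSO list, and Isl1, a transcription factor of the LOC list, were in no control, with an interval up to 36.9%. Maf was in 45 of 52 pLSO and 8 of 28 LOC, and Isl1 in 22 of 28 LOC and no pLSO (upper bound 6.85%). A control held 22.9% ± 26.6 of the pLSO list and 29.2% ± 24.8 of the LOC list. An LOC neuron held 19.6% of the pLSO list and a pLSO neuron 6.09% of the LOC list.

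Genes of protein synthesis and respiration took more reads in controls, in fewer genes. Of 83 cytosolic ribosomal protein genes, 66 were in at least 1 control and 12 in at least 4. Of the 80 compared, 37 were called higher in neurons, beside 21.9% of all compared genes. A control held 23.0% ± 12.3 of them and a neuron 63.7% ± 18.7. The list took 44622 RPM at the control median and 15149 at the neuron median, and 0 of 80 neurons reached the control median. Rpl13 was at 52390, 68285, 47851 and 3803 TPM in NC1, NC2, NC4 and NC7, from about 77, 292, 250 and 1 reads. It was at 0 in the other 4 controls and at a median of 4610 in neurons, of which 70 held it. Many of these genes have processed pseudogenes with which reads can be shared.

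Nuclear genes of oxidative phosphorylation behaved alike. Of 93 members, 69 were in at least 1 control, 18 in at least 4 and 75 in at least 40 of the 80 neurons. The list took a median of 69303 RPM in controls and 35535 in neurons. Cox6c, a subunit of cytochrome c oxidase, was in 5 controls at up to 46290 TPM (NC3, 12 reads) and in 79 neurons at up to 7150. Atp5g1, a subunit of ATP synthase, was in 3 controls and 79 neurons. Over the list, controls gave 192 detections where 423 were expected at equal reads, a ratio of 0.454, close to that of all compared genes. Under the rank of 250 genes the difference of the ribosomal list turned to 1.10 points and that of this list to 0.685 points higher in controls.

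The v-ATPase, the proton pump of vesicles and lysosomes, was one of the lists with few reads in the controls. Its 26 genes took a median of 748 RPM in controls and 10150 in neurons, 13.6-fold apart, and 79 of 80 neurons reached the control median. Of 18 members compared, 15 were called higher in neurons, beside 21.9% of all compared genes. At equal reads the ratio of detections was 0.468, beside 0.418. Atp6v0c, the proteolipid of the pump, was in 77 neurons at a median of 1260 TPM and in 2 controls, with 1 read in NC3 and 4 in NC8. Atp6v0d1 was in 65 neurons and no control. Glycolysis was nearer to the middle, with 4016 RPM in controls and 15221 in neurons, and 11 of 16 genes called higher in neurons, beside the same 21.9%. Ldhb, a subunit of lactate dehydrogenase, was in every neuron at a median of 316 TPM and in 4 controls at 10, 12, 26 and 1511 TPM, from about 2, 9, 15 and 1178 reads.

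Activity genes were in few controls each, like most compared genes, and chaperone genes were frequent. Of 14 immediate early genes, which neurons switch on when they fire, 8 were in a control and none in more than 3. Fos, the best known of them, was at 51160 TPM with about 1199 reads in NC10, at 0 in the other 7 controls, and in 63 of 80 neurons at up to 3180 TPM. Jund was in 3 controls and 10 neurons. The immediate early list took a median of 149 RPM in controls and 1914 in neurons. It reached 44497 RPM in NC10, against 8134 at most in a neuron. A control held 10.7% ± 7.64 of it and a neuron 28.8% ± 13.9, beside 7.30% and 24.6% of all compared genes. At equal reads its ratio of detections was 0.502, beside 0.418 for all compared genes. Of 11 chaperone genes, Hsp90aa1, Hsp90ab1, Hspa8, Dnaja1 and Hspa5 were in at least 4 of the 8 controls, and the heat-inducible Hspa1a and Hspa1b were in none. Hspa8 was at up to 50590 TPM in controls (NC9, about 153 reads, median 5264) and 36431 in neurons (median 10920). Of the ubiquitin list, Ubb was in all libraries, at 156 to 25368 TPM in controls (median 1846, about 1 to 1309 reads) and 1125 to 31540 in neurons (median 9426).

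The imprinted genes had no common direction. Meg3 was in all libraries, Peg3 was in 6 controls and 75 neurons, and Nnat was 1 of the 7 genes called higher in controls. Over the list, 24 detections in controls stood beside 24.3 expected at equal reads. Peg3, a zinc finger protein, had a mean without the highest library of 1773 TPM in controls and 8143 in neurons.

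Most genes of the controls were seen in a single control. Of 4092 genes found in any control, 2752 were in exactly 1, 805 in 2 and 280 in 3. Among genes in 1 control alone, those of highest TPM were Lin7b in NC7, Mid2 in NC4, Reep5 and Abhd17a in NC9, Psmb1, Trmt1 and Nhp2 in NC10, and Ccdc97 in NC8. Their values lay between 66213 and 389802 TPM, from about 89 (Abhd17a) to 675 (Ccdc97) reads. Mid2, a microtubule-associated ligase, was at 97615 TPM in NC4 and in 3 of 80 neurons at up to 11975. Reep5 and Psmb1 were in 57 and 58 neurons, and no neuron reached the control value of any of the 8 genes.

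The controls thus shared few genes with each other. A control shared a median of 21.5% of its genes with another control (range over 56 ordered pairs, 6.61% to 36.9%). Nearly all of its genes were seen in some neuron, at a median of 96.7%, and 41.8% were in at least 40 of the 80 neurons, where a neuron had 34.7% of its own genes in that class. Only 18 genes were in at least 2 controls and no neuron. By biotype, protein-coding genes made up 93.9% ± 1.59 of the genes of a control and 96.1% ± 0.865 of those of a neuron. Pseudogenes made up 3.25% ± 0.834 and 1.40% ± 0.334 (SD over 8 controls and 80 neurons), with ranges of 1.89% to 4.62% and 0.701% to 2.55%, which overlapped.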

How the data were processed

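The authors prepared the libraries by a modification of Smart-seq2. Per the labels, FastQC, Trim Galore 0.4.2, STAR, Picard 1.115 and featureCounts were used on the mm10 build. The score values are TPM that the authors rounded to whole numbers in the deposited table of 38887 genes, with 0 columns that could not be matched to a sample. Names, positions and biotypes were taken from Gencode vM21 (GRCm38), in which 37570 gene identifiers matched. Mitochondrially encoded genes were not analysed here.

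The members, gene lists and thresholds were chosen with earlier results of these data known. Detection was set at 1 TPM, and the pseudocount of the ratio was 1 TPM. The worth of 1 read in each library was estimated from the smallest steps of the first rows, and whole divisors of the first 5200 rows were fitted as a rising series, tested on simulated libraries. Later divisors were interpolated up to row 20775, and rows after it have no reads. Reads carry no molecular identifiers, so a read is not a molecule. Where a library left out of a mean is named highest, it was removed in each group. RPM refer to recovered reads. Alternatives are given in the closing section. Named genes were those of highest share in neurons among genes in no control (12), of highest share in controls (12), of largest share difference (10) or ratio (8) towards controls, of highest TPM in a single control (8), up to 4 of each list and the class genes. A few genes picked by these rules are left unreported here. Calculations used SciPy 1.17.1, NumPy 2.4.6 and pandas 2.3.3 in Python 3.11.15; divisors were interpolated with scikit-learn 1.9.0.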

Additional observations from a re-analysis of the deposited data

Results flagged for a closer look

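Of 33 values looked at over the 8 controls, 4 had 1 control far from the other 7 by Dixon's criterion. Chance marks about 1 in 20 groups of continuous values, a rate that does not apply to 3 of the 4, where 1 gene in 1 control and 0 in the other 7 meets the criterion by construction. In NC10 9.09% of the mural cell and fibroblast list was detected (1 gene, Col1a1), in NC9 16.7% of the choroid plexus list (Ttr) and in NC8 16.7% of the keratin list (Krt8), where the other controls were at 0. In NC8 26.3% of the ionotropic glutamate receptor list was detected, against a control median of 5.26%.

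Among the libraries left out, 5 held more genes than the richest control compared (1271). NC6, labelled as a negative control, held 3104 genes, 18 of the 20 pan-neuronal genes and about 176414 reads. The neurons cell_39, cell_54, cell_78 and cell_85 held 2104, 2582, 2052 and 2784 genes.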

How the results depend on the processing

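No paired analysis was possible because the labels tie no library to a day and no comparison rests on a test. The controls are 8 libraries of low depth, and the interval for a gene in 0 of 8 reaches 36.9%.

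With detection at 10 TPM, a median neuron held 1578 genes, 148 genes were in at least 4 of the controls, 1389 were higher in neurons and 18 in controls, and 96.8% (controls) and 99.0% (neurons) of detected genes were protein coding. With detection at 100 TPM, the medians were 262 genes per control and 665 per neuron, 59 genes were in at least 4 controls, 558 were higher in neurons and 22 in controls, and the coding shares were 98.1% and 99.4%. Detection among the 250 highest genes of a library ranks TPM of different genes, which are not on 1 scale. By this rank 56 genes were in at least 4 controls, 126 were higher in neurons and 27 were higher in controls. The share was higher in neurons for 14 of 29 lists. Here the list share became higher in controls for astrocytes (by 4.12 points), cytoskeleton (14.1), ribosomal proteins (1.10), chaperones (0.795), pan-neuronal genes (12), oxidative phosphorylation (0.685), the pLSO genes (4.58), sodium channels (0.804) and vesicle release (7), and for Atp6ap1 (7.50), Cacnb4 (5), Lpgat1 (8.75), Rab3a (12.5) and Scn8a (11.2); the cause was not tested.

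Means over all libraries gave 14 genes higher in controls, medians gave 775 higher in neurons, and a pseudocount of 10 TPM gave 1202 and 2. The 50 highest genes held 87.2% of the summed TPM in controls and 49.4% in neurons. Against the LOC neurons alone, the pLSO genes (3.27 points), Cacng5 (5.36) and Kcnh7 (8.93) had the higher share in controls. Leaving out 1 control gave 161 to 231 genes in at least 50% of the controls and 3 to 9 genes higher in controls.

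Some alternatives were chosen after seeing the data. Rows in which every read is listed gave medians of 114 genes per control and 393 per neuron, and 483 genes higher in neurons and 3 in controls, from fewer genes tested. Without NC3 and NC7, the controls of under 5000 reads, 392 genes were in at least 50% of the controls and 11 were higher in controls. Means in RPM gave 2372 and 8. By recovered reads in place of TPM, the 10 highest genes held 21.5% in controls and 6.93% in neurons. Of the other values of groups and counts, 80 stayed within 1 SD or 1.5 times.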

Other observations

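Some patched neurons had RPM in the oligodendrocyte, red blood cell or microglia list as high as those of controls. Where these transcripts came from was not tested. The oligodendrocyte list reached 141460 RPM in the neuron cell_30, against a highest control of 147803 (NC10), and 27 of 80 neurons were at or above the lowest control. At least 1 neuron held all 19 oligodendrocyte genes and at least 1 held all 15 microglia genes, more than the 8 and 4 that any control held. The red blood cell list reached 495497 RPM in 1 neuron, where Hba-a2 was at 10200 TPM and Hba-a1 at 3996 TPM, above the highest controls (1310 and 1102 TPM). The microglia list reached 22972 RPM in cell_45, against a highest control of 20484 (NC4).

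Of the 2 controls of fewest reads, NC3 held no globin transcript and about 11 reads of Mbp among its 1208 reads. Both controls, NC3 and NC7, held 4 of the 20 pan-neuronal genes.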
